A study of Homo sapiens with 3 samples.

Results

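The genes described here encode the enzymes that build fatty acids from citrate and join them into triglyceride. They were chosen by name, as the rows of the expression table with the symbols ACLY, ACACA, ACACB, FASN, SCD, ELOVL6, ME1, GPAM, DGAT1 and DGAT2. All 10 symbols are among the 21572 rows of the table. A minimum mean of 1 FPKM (a library's fragments divided by transcript length and by mapped depth) over the libraries was passed by 8 of them, and by 11069 genes in all; these are the compared genes. ACACB lay just under that minimum and ME1 was listed at 0.

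RNA came from Hep-G2, an established cell line from a human hepatoma, grown in serum-containing medium and taken at passage 21. The control cells carried the hairpin SHC002, the sh#2 cells the FTO hairpin TRCN0000255402 and the sh#7 cells the FTO hairpin TRCN0000246247. Each group was 1 library, so nothing here measures the spread between cultures, no difference was tested, and FTO loss cannot be told apart from other traits of a line. Whether a line was a clone or a pool was not given in the sources used here. FTO encodes a demethylase of RNA, and the series describes the knockdown as stronger in sh#7. FTO itself lay at 9.02 FPKM in control cells, 5.29 in sh#2 cells and 2.55 in sh#7 cells, in the order of the labels.

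In this pathway ATP-citrate lyase splits cytosolic citrate into acetyl-CoA, acetyl-CoA carboxylase turns it into malonyl-CoA, and fatty acid synthase strings these units into palmitate, using NADPH that malic enzyme and the pentose phosphate pathway supply. ELOVL6 lengthens palmitate and SCD puts a double bond into the product. GPAM then starts glycerolipid assembly on the mitochondrial outer membrane and DGAT1 and DGAT2 add the last acyl chain. In liver many of these genes are known targets of the insulin-responsive factor SREBP-1c, of the glucose-responsive factor ChREBP, or of both.

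Among the compared enzymes, GPAM and DGAT2, the first and last steps of triglyceride assembly, stood furthest above the control in the FTO hairpin lines, the desaturase SCD lay near the control level and the elongase ELOVL6 below it. Differences were above 0 for 7 of the 8 in sh#7 and 6 of the 8 in sh#2, beside 67.2% of all compared genes in each line, and for SCD and DGAT1 in sh#7 the sign turned under both rescalings described below. In sh#7, GPAM was 3.41-fold, DGAT2 2.53-fold, ACACA 2.14-fold and FASN 1.63-fold the control by FPKM, while ELOVL6 was 2.06-fold below it. In sh#2 the same 4 genes were 1.84-fold, 1.78-fold, 1.51-fold and 1.44-fold the control, and ELOVL6 was 1.21-fold below it. SCD and DGAT1 stood within 1.26-fold of the control in both lines. Both lines are set against the same control library, so a chance deviation in it would appear in both.

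**Figure D1:**
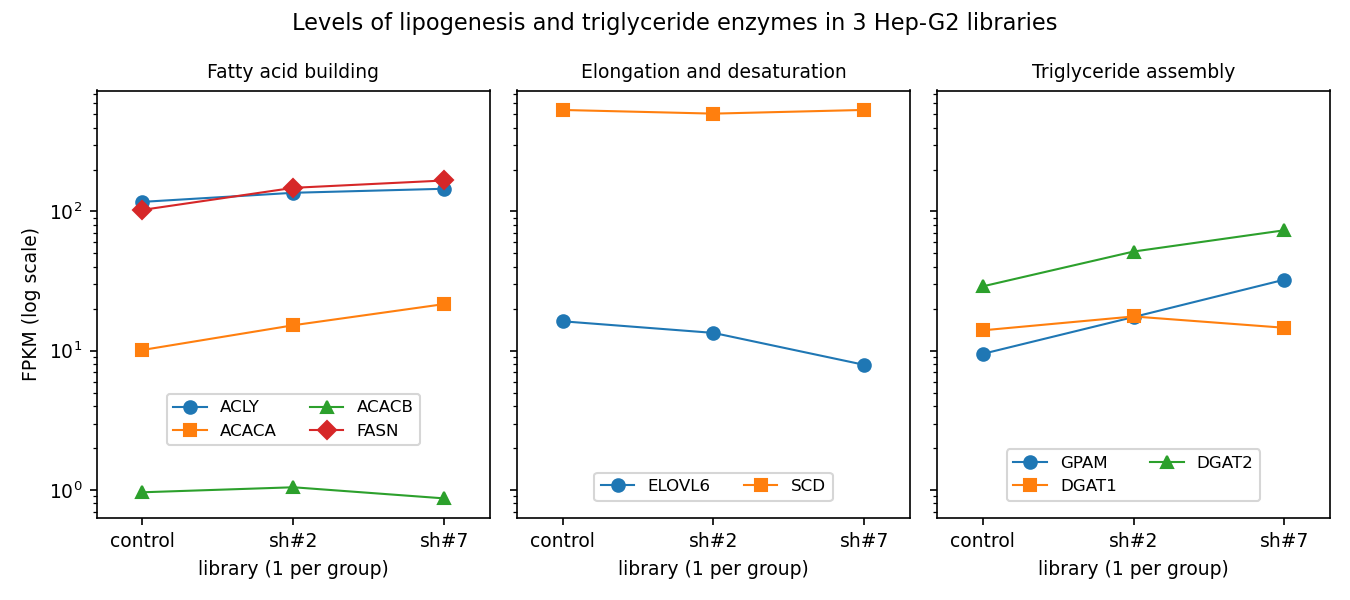
FPKM (log scale) of 9 enzymes in the control, sh#2 and sh#7 libraries, each point 1 library, with lines joining the values of 1 gene; ME1 was listed at 0 and cannot be drawn. GPAM, DGAT2, ACACA and FASN climb from left to right, ELOVL6 descends from 16.3 to 7.91 FPKM, and SCD stays between 504 and 536 FPKM.

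Upstream sequence is shown for the member furthest above the control, the one furthest below it and the most abundant one. Of the 10 genes, 7 have a window in the RefSeq promoter table (GRCh38.p14). The 250 bases before the annotated start were searched on both strands for the GC box GGGCGG, the CCAAT box CCAAT, the E-box CACGTG and the sterol response element form TCACNCCAC, and matches are in capitals; overlapping matches count separately. GPAM lies on the minus strand at chr10:112183766-112184015, ELOVL6 on the minus strand at chr4:110198616-110198865 and SCD on the plus strand at chr10:100346983-100347232.
GPAM: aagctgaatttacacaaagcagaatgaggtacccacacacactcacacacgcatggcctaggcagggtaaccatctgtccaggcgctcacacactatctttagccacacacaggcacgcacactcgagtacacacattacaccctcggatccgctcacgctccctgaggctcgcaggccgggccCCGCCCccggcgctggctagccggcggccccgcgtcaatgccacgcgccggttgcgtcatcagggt
ELOVL6: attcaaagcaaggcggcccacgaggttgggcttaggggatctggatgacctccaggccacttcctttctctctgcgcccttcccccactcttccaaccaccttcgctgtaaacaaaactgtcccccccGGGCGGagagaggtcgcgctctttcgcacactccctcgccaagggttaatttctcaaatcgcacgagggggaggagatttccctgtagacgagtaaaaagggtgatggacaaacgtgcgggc
SCD: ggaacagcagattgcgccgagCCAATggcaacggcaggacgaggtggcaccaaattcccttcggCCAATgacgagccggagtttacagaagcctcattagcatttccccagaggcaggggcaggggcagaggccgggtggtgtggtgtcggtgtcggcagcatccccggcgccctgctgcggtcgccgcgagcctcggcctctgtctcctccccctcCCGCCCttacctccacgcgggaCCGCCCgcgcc

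The GPAM and ELOVL6 windows each hold 1 GC box and no CCAAT box, so by these letters the genes at opposite ends of the set look alike. The SCD window holds 2 GC boxes and 2 CCAAT boxes. Of the 3 windows listed for ACACA, the most GC-rich (81.6% G or C) holds 5 GC boxes, another holds 6 GC boxes and 1 CCAAT box, and the third holds 2 CCAAT boxes and no GC box. The table pools all transcripts of a gene, so which ACACA start was in use was not measured. No window of a member held CACGTG or TCACNCCAC. Among all 35116 promoter windows of the same length, 42.6% held a GC box, 32.0% a CCAAT box, 6.34% CACGTG and 0.883% TCACNCCAC. These matches describe letters and show neither binding nor its absence.

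Acetyl-CoA supply and carboxylation came first in the pathway. ACLY, the citrate lyase, was at 117 FPKM in control cells, 136 in sh#2 cells and 146 in sh#7 cells. The sh#7 level was 124% of the control, with a 95% interval of 122 to 126 that covers counting error only, as do all intervals below. On the log2(FPKM + 1) scale the ACLY difference was 0.31 in sh#7 and 0.21 in sh#2, close to the 68.3 and 69.3 percentiles of all compared genes, so many genes differed by more.

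ACACA encodes the cytosolic acetyl-CoA carboxylase that commits carbon to fatty acid synthesis. Its level was 10.1 FPKM in control cells, 15.2 in sh#2 cells and 21.6 in sh#7 cells. That is 151% of the control in sh#2 (145 to 156) and 214% in sh#7 (206 to 222). The difference of 1.02 on the log2(FPKM + 1) scale in sh#7 sat only just past 2-fold, and it came to 0.85 and 0.92 when libraries were rescaled by median-of-ratios and by upper quartile.

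ACACB encodes the carboxylase at the mitochondrial surface, whose malonyl-CoA restrains fatty acid import. It was at 0.962 FPKM in control cells, 1.05 in sh#2 cells and 0.869 in sh#7 cells, below the minimum mean for comparison. Against the control, the counting intervals were 94.9 to 125% for sh#2 and 78.3 to 104% for sh#7, so no difference from the control was detectable at this depth. Per length, ACACA was 10.5 times ACACB in control cells, 14.6 times in sh#2 cells and 24.9 times in sh#7 cells.

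FASN, the multidomain fatty acid synthase, was at 103 FPKM in control cells, 148 in sh#2 cells and 167 in sh#7 cells. It was below ACLY in the control and above it in both hairpin lines. The log2(FPKM + 1) difference was 0.52 in sh#2 and 0.70 in sh#7, at the 96.0 and 93.9 percentiles of compared genes. Between the lines FASN differed by 0.17, less than either line differed from the control.

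ME1 encodes the cytosolic malic enzyme that makes NADPH. It was listed at 0 in all 3 libraries. Whether an exact 0 in this table is a failed estimate or a lack of expression is not known. VIM and INSIG1 were listed at 0 as well, among 4384 genes in all. No statement on ME1 expression is made from its 0.

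The elongase and the desaturase act on the product of the synthase. ELOVL6 was at 16.3 FPKM in control cells, 13.4 in sh#2 cells and 7.91 in sh#7 cells. It was the 1 compared member whose counting interval lay below the control in both lines. The sh#7 level was 48.6% of the control (45.8 to 51.5) and the sh#2 level 82.5% (78.5 to 86.7). The log2(FPKM + 1) difference of -0.95 in sh#7, at the 2.69 percentile of compared genes, fell short of 2-fold. It passed 2-fold at -1.12 when scaled by median-of-ratios, -1.06 when scaled by upper quartile and -1.03 with a pseudocount of 0.1.

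SCD, the stearoyl-CoA desaturase, was by far the most abundant member, at 536 FPKM in control cells, 504 in sh#2 cells and 536 in sh#7 cells. It ranked 161, 162 and 142 among all genes of these libraries. Its log2(FPKM + 1) difference was 0.00 in sh#7 and -0.09 in sh#2. The sh#7 sign depends on the scaling, since the value was -0.19 after median-of-ratios and -0.11 after upper-quartile scaling. A pseudogene named SCDP1 exists, and how reads were divided between it and SCD is uncertain.

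Triglyceride assembly held the widest differences. GPAM, the mitochondrial glycerol phosphate acyltransferase, was at 9.48 FPKM in control cells, 17.4 in sh#2 cells and 32.4 in sh#7 cells. These are 184% (176 to 193) and 341% (327 to 356) of the control. The log2(FPKM + 1) differences were 0.82 for sh#2 and 1.67 for sh#7, at the 99.1 and 99.5 percentiles of compared genes. GPAM was also the member that differed most between the lines, 0.86 higher in sh#7 than in sh#2.

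DGAT2, a diacylglycerol acyltransferase tied in liver to newly made fatty acids, was at 29.0 FPKM in control cells, 51.5 in sh#2 cells and 73.3 in sh#7 cells. Its sh#2 level was 178% of the control (170 to 186) and its sh#7 level 253% (243 to 264). On the log2(FPKM + 1) scale this is 0.81 and 1.31, with only about 1 in 100 compared genes further up in either line (percentiles 99.1 and 98.8).

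DGAT1 catalyses the same reaction through an unrelated protein. It was at 14.0 FPKM in control cells, 17.6 in sh#2 cells and 14.6 in sh#7 cells, so sh#2 stood highest. The sh#2 level was 126% of the control (119 to 133), and the sh#7 interval of 98.5 to 111% included the control level. The sh#7 difference of 0.06 turned to -0.12 after median-of-ratios and -0.05 after upper-quartile scaling. Exons of DGAT1 overlap HSF1 on the other strand in GENCODE 29, and those of DGAT2 and ACLY overlap unnamed antisense genes. DGAT1 also overlaps the microRNA gene MIR6848 and an unnamed gene on its own strand, which counting by strand would not separate. Whether counting used strand was not given in the sources used here.

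Counted together, 3 of the 8 compared members (ACACA, GPAM and DGAT2) were at least 2-fold higher in sh#7 than in the control, where 2.35% of all compared genes were; none was 2-fold lower, against 2.48% of all. At 1.5-fold, FASN joined the higher members, making 4 of 8 against 9.61% of all, and ELOVL6 was the 1 lower member, against 6.18%. In sh#2 no member passed 2-fold, where 0.506% of all genes were higher and 0.723% lower. GPAM and DGAT2 passed 1.5-fold in sh#2, 2 of 8 against 2.67% of all, and no member was 1.5-fold lower, against 2.72%. After either rescaling the sh#7 count was 2 higher and 1 lower at 2-fold, because ACACA dropped under the threshold and ELOVL6 crossed it. The members were chosen with earlier results of these libraries known, so the counts describe these genes and support no general statement.

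The median over the 8 compared members was 0.50 for sh#7 and 0.42 for sh#2 in log2(FPKM + 1), beside 0.16 and 0.10 over all compared genes. Members spanned -0.95 to 1.67 in sh#7, and -0.26 to 0.82 in sh#2. Thus a single median hides a set that spread both ways. Median-of-ratios scaling took the median of all genes in sh#7 from 0.16 to -0.01, and the members' median less that of all genes went from 0.35 to 0.32.

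**Figure D2:**
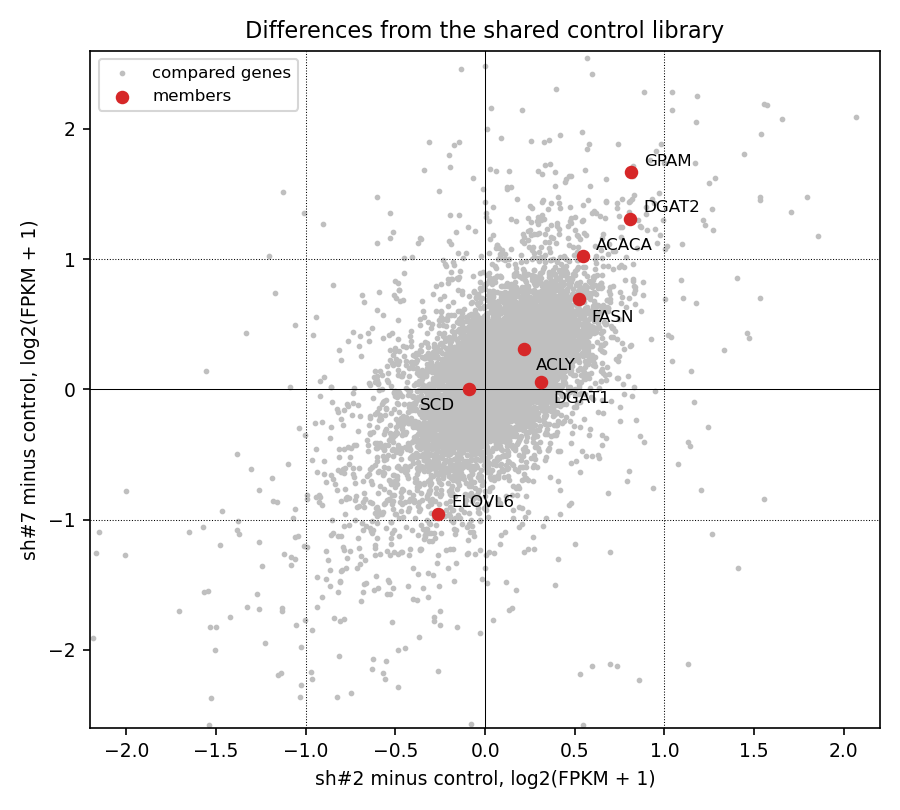
Each point is 1 gene, placed by its difference in log2(FPKM + 1) between sh#2 and control (x axis) and between sh#7 and control (y axis); grey points are the compared genes, red points the 8 compared enzymes, dotted lines mark 2-fold, and 48 genes lie outside the drawn range. GPAM, DGAT2 and ACACA lie above the upper 2-fold line for sh#7, ELOVL6 lies just inside the lower one, and both axes share the control library.

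The FTO hairpin lines were also set directly against each other. No member was 2-fold higher or lower in sh#7 than in sh#2, where 1.45% and 1.52% of all compared genes were. At 1.5-fold GPAM was higher (5.14% of all genes) and ELOVL6 lower (4.55%). ACACA and DGAT2 were 0.48 and 0.50 higher in sh#7 on the log2(FPKM + 1) scale, and DGAT1 was 0.25 lower. ACLY, FASN and SCD differed by 0.10, 0.17 and 0.09.

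The levels of 5 of the 8 compared members (ACLY, ACACA, FASN, GPAM and DGAT2) were ordered control, sh#2, sh#7 from low to high, an order that 37.9% of all compared genes shared. ELOVL6 had the opposite order, shared by 13.4%. An ascending order is thus common in these libraries as scaled. For ACLY the step between sh#2 and sh#7 was 0.10, and it came to 0.03 after median-of-ratios scaling.

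Ratios within a library do not depend on how libraries are scaled to each other. DGAT2 per unit of DGAT1 was 2.07 in control cells, 2.93 in sh#2 cells and 5.02 in sh#7 cells. GPAM per unit of DGAT1 was 0.677, 0.990 and 2.22, so GPAM went from below DGAT1 to above it. ACACA per unit of ACLY was 0.0864, 0.112 and 0.149. ACACA kept closer to FASN, at 0.0986, 0.103 and 0.130. The ratios of the elongase and the desaturase to the synthase ran the other way. ELOVL6 per unit of FASN was 0.159, 0.0908 and 0.0474, and SCD per unit of FASN was 5.22, 3.41 and 3.21. The SCD to FASN ratio thus differed from the control by about the same factor in both lines, whereas the ELOVL6 ratio was lowest in sh#7.

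**Figure D3:**
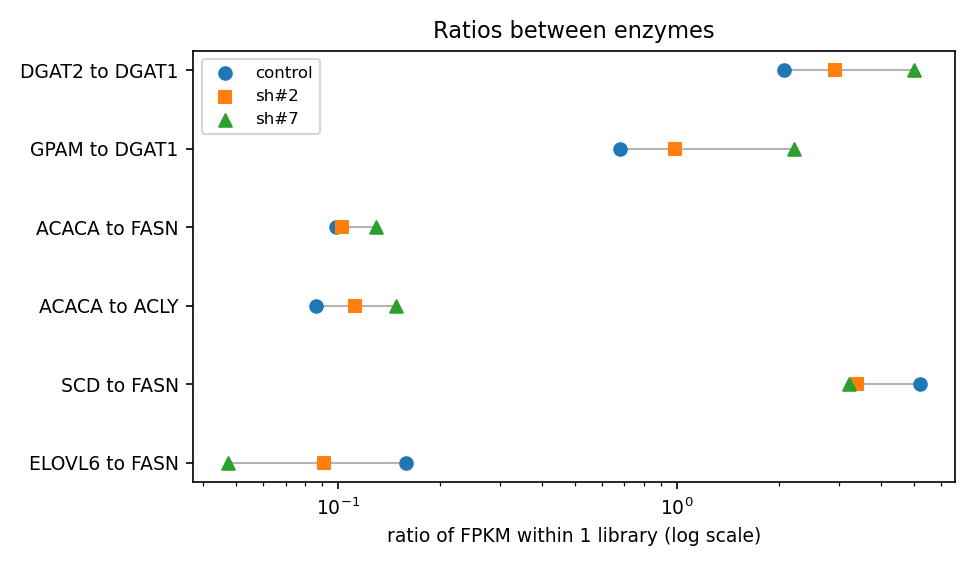
FPKM of 1 enzyme divided by that of another in the same library (log scale), with 1 point per library and a grey line over the range. The ratios to DGAT1 are highest in sh#7, at 5.02 for DGAT2 and 2.22 for GPAM, while ELOVL6 to FASN is lowest there, at 0.0474.

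Per length, SCD led in every library, and ACACB came last of the members listed above 0. The sum over the 10 genes, to which ME1 adds 0, was 835 FPKM in control cells, 905 in sh#2 cells and 999 in sh#7 cells. SCD made up 64.1%, 55.7% and 53.6% of it. Without SCD the sums were 299.6, 400.3 and 463 FPKM. Below DGAT2 the order was rearranged. In control cells it read ELOVL6, DGAT1, ACACA and GPAM from high to low. In sh#7 it read GPAM, ACACA, DGAT1 and ELOVL6. In sh#2, DGAT1 and GPAM were nearly level, at 17.6 and 17.4 FPKM.

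The genes around these enzymes were taken from 6 lists, of which 82 of 94 genes were compared. Of the 82, 1 was 2-fold higher and 6 were 2-fold lower in sh#7 than in the control, and 0 passed 2-fold in either direction in sh#2, all on the log2(FPKM + 1) scale. As shares these are 1.22% higher and 7.32% lower in sh#7, beside 2.35% and 2.48% of all compared genes.

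Among 17 compared regulators of lipogenesis, 0 were 2-fold higher and 2 were 2-fold lower in sh#7, with a median of 0.25 for sh#7 and 0.06 for sh#2. SREBF1, which encodes the lipogenic factors SREBP-1a and SREBP-1c, was at 13.9 FPKM in control cells, 15.7 in sh#2 cells and 24.2 in sh#7 cells. INSIG2, an endoplasmic reticulum protein that holds SREBP precursors back, was at 108 FPKM in control cells, 59.2 in sh#2 cells and 49.3 in sh#7 cells. PPARG, a nuclear receptor of fat storage, was at 20.5, 15.2 and 9.16 FPKM in that order. MLXIPL, which encodes ChREBP, was level at 20.1, 20.7 and 20.0 FPKM; it was picked after its values were seen. TRIB3, a pseudokinase, was at 41.5, 56.8 and 57.1 FPKM, and the E-box binding factor gene USF2 at 85.5, 112 and 114 FPKM. SREBF1 was thus higher chiefly in sh#7, whereas INSIG2 was lower in both lines.

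Of 16 compared genes for citrate, acetyl-CoA and NADPH supply, 0 were 2-fold higher and 1 was 2-fold lower in sh#7, and the median was -0.02 in sh#7 and 0.11 in sh#2. BRP44L, the older symbol of the mitochondrial pyruvate carrier subunit MPC1, was at 103 FPKM in control cells, 130 in sh#2 cells and 49.4 in sh#7 cells, so the lines lay on opposite sides of the control. The pyruvate carboxylase gene PC was at 23.4, 19.7 and 14.7 FPKM. The pentose phosphate genes RPIA and TALDO1 were at 19.1 and 168 FPKM in control cells, 28.4 and 199 in sh#2 cells, and 25.4 and 224 in sh#7 cells.

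Of 10 compared genes that modify the carboxylases and the synthase, 0 passed 2-fold in either line. The median was 0.12 in sh#7 and 0.07 in sh#2. PRKAB2, a subunit of the kinase AMPK that phosphorylates and inhibits acetyl-CoA carboxylase, was at 22.9 FPKM in control cells, 18.1 in sh#2 cells and 16.1 in sh#7 cells. The PRKAB2 difference in log2(FPKM + 1) was -0.32 in sh#2 and -0.48 in sh#7, at the 7.22 and 7.73 percentiles of compared genes. Another AMPK subunit gene, PRKAG1, was at 10.6, 12.8 and 13.7 FPKM. AASDHPPT, which attaches the phosphopantetheine arm of fatty acid synthase, was at 21.0, 23.5 and 26.2 FPKM.

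Among 12 compared elongases, desaturases and partners of the elongation cycle, 1 was 2-fold lower and 0 were 2-fold higher in sh#7. ELOVL2, an elongase of polyunsaturated chains, was at 35.2 FPKM in control cells, 29.4 in sh#2 cells and 10.1 in sh#7 cells. In sh#7 it stood at 28.7% of the control (27.2 to 30.3), a wider gap than that of ELOVL6. ELOVL1, which acts on very long chains, was at 47.3, 61.2 and 67.4 FPKM and so lay on the other side. The dehydratase genes of the cycle PTPLB (now HACD2) and PTPLA (now HACD1) were at 23.5 and 15.2 FPKM in control cells, 28.8 and 17.0 in sh#2 cells, and 42.8 and 19.9 in sh#7 cells. Over the list the median was 0.15 for sh#7 and -0.02 for sh#2, so the low elongases ELOVL6 and ELOVL2 were not joined by the list as a whole. Of the elongases picked after their values were seen, ELOVL5 was also lower in sh#7, at -0.37, and ELOVL7 was higher, at 0.12.

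Other glycerolipid genes went both ways, with 1 of 17 compared 2-fold higher and 2 of 17 lower in sh#7, and medians of 0.25 in sh#7 and 0.03 in sh#2. MTTP, the transfer protein that loads triglyceride onto apolipoprotein B, was at 16.0 FPKM in control cells, 15.1 in sh#2 cells and 1.86 in sh#7 cells. This is 11.6% of the control in sh#7 (10.3 to 13.0), against 94.2% in sh#2. The glycerol kinase gene GK was at 17.0, 8.40 and 4.64 FPKM, with near-identical copies elsewhere in the genome that leave its counting uncertain. GPD1L and GPD1, glycerol phosphate dehydrogenases that supply the backbone, were at 4.77 and 3.48 FPKM in control cells, 6.96 and 6.28 in sh#2 cells, and 12.8 and 5.28 in sh#7 cells. The acyltransferase gene AGPAT3, which acts after GPAM, was at 16.7, 19.7 and 29.5 FPKM. MOGAT3, a monoacylglycerol acyltransferase, was at 13.0, 8.30 and 6.18 FPKM. AGPAT9, which encodes another glycerol phosphate acyltransferase and was picked after its values were seen, was at 4.43, 2.45 and 6.31 FPKM and was the list gene furthest up in sh#7 against sh#2.

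**Figure D4:**
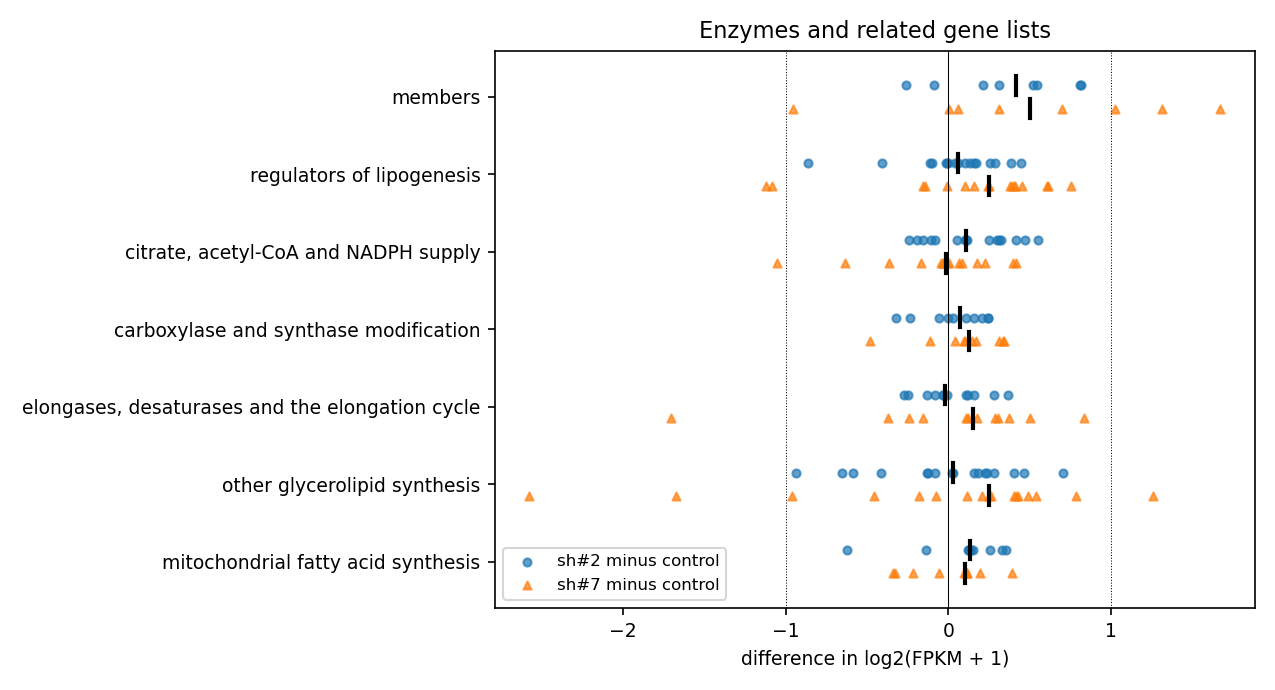
Differences from the control in log2(FPKM + 1) for the 8 compared enzymes and the compared genes of 6 related lists (circles sh#2, triangles sh#7); black bars are medians and dotted lines mark 2-fold. The enzymes have medians of 0.42 and 0.50, and the point furthest to the left is MTTP in sh#7, at -2.57.

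Estimated depth was 46.3 to 47.4 M (mega) fragments per library, and the most abundant 100 genes took 34.7% of the summed FPKM of control cells and 29.0% of that of sh#7 cells. The hepatocyte markers ALB, APOA1 and HNF4A were at 5468, 2616 and 93.1 FPKM in control cells. Of 10 hepatocyte markers, 5 were 2-fold lower in sh#7, ALB and APOA1 among them, beside 2.48% of all compared genes. In sh#2, 2 were 2-fold lower, beside 0.723%, and 0 were 2-fold higher in either line. AFP was at 961 FPKM in control cells, 294 in sh#2 cells and 15.7 in sh#7 cells. The 10 markers summed to 20659 FPKM in control cells, 16022 in sh#2 cells and 9139 in sh#7 cells, but they did not move together. In sh#2, ALB, APOA1, APOB and HNF4A stood slightly above the control, at 5501, 2629, 354 and 97.5 FPKM, and the others were lower. In sh#7 all 10 were lower, but HNF4A and FOXA2 only a little, at 81.3 and 41.0 FPKM beside 93.1 and 46.5 in control cells. Adipocyte markers, checked because fat cells use the same enzymes, summed to between 0.902 and 2.53 FPKM, with ADIPOQ, LEP and FABP4 listed at 0. The fibroblast markers COL1A2, COL3A1, DCN and LUM and the blood markers PTPRC, CD3E, MS4A1 and HBB were also listed at 0. As for ME1, a value of exactly 0 may be a failed estimate. Their lists summed to between 35.4 and 52.7 FPKM and between 24.0 and 40.2 FPKM, mostly from ACTA2 and CD68. Of the other fibroblast markers, PDGFRB was at 3.76 FPKM in control cells, 1.69 in sh#2 cells and 0.616 in sh#7 cells. COL1A1 was at 0.0149, 0.102 and 0.578 FPKM. The part of the lower hepatocyte markers in the enzyme differences was not tested. In bulk RNA, fewer cells of a kind and less RNA per cell cannot be told apart.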

How the data were processed

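RNA of 3 Hep-G2 libraries, 1 per group, was sequenced by the authors. The tools STAR 2.4.0j, Cufflinks 2.2.1 and HTSeq and the build hg19 are named per the submitters' processing notes. The deposited table gives FPKM as the authors computed it, with 1 value per gene symbol and library. All 3 columns matched a sample title.

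No count model was applied, as FPKM are normalized values. Differences were taken in log2(FPKM + 1), which understates the change of low genes, and genes averaging 1 FPKM or more were compared. A difference of 1 on that scale is called 2-fold. With 1 library per group there is no test.

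Depth was estimated from the steps that single fragments leave in low values of 1-transcript genes over 800 nt (GENCODE 29), with 190 nt taken off each length. That length was first searched in steps of 20 nt and, after values had been seen, in steps of 10 nt; the coarser search took off 200 nt, moved no interval bound of the 35 genes by more than 0.685 percentage points and moved 0 intervals across the control level. Fragments per gene used its principal transcript in that release, newer than hg19, so they are approximate. Intervals are exact 95% (Clopper-Pearson) and cover counting error only; reads without molecular identifiers are not independent molecules.

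The members and lists were chosen with earlier results of these data known. The naming rule took all members, FTO, each list gene past 2-fold in either line and the 3 others with the largest mean difference; other genes are marked. 1 gene of the lists is not reported here and was left out of them. Alternatives were a pseudocount of 0.1, a minimum mean of 5 FPKM, no filter, median-of-ratios and upper-quartile scaling, and 1.5-fold. The calculations were tested on data simulated with the counting error and transcript lengths that the depth estimate and intervals assume. That test could not show whether these assumptions hold. Python 3.11.15, pandas 2.3.3 and scipy 1.17.1 were used.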

Additional observations from a re-analysis of the deposited data

Results flagged for a closer look

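BRP44L (MPC1), which encodes a subunit of the mitochondrial pyruvate carrier, lay on opposite sides of the control in the 2 FTO hairpin lines. Its difference from the control in log2(FPKM + 1) was -1.05 in sh#7 and 0.33 in sh#2, each with a counting interval that leaves out 0. The difference between the lines was not tested, as each is 1 library.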

How the results depend on the processing

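No paired analysis was possible because there was 1 library per group, nor could a replicate be left out. Of 69 summary values under the alternatives, 49 stayed within 1.5 times (counts) or within the members' counting interval (medians). Part of this was fixed beforehand. All 8 compared members also pass the minimum mean of 5 FPKM, so their counts and medians could not differ under it. Several other unchanged counts were 0 both times. With a pseudocount of 0.1, or after median-of-ratios or upper-quartile scaling, 1 member was 2-fold lower in sh#7 against control (ELOVL6) and 1 list gene passed 2-fold in sh#2 against control. The members' median in sh#7 and sh#2 against control was 0.32 and 0.30 when scaled by median-of-ratios, 0.39 and 0.32 when scaled by upper quartile, and 0.18 and 0.26 with no filter, which adds ACACB and the 0 of ME1; in sh#7 against sh#2 it was 0.066 after median-of-ratios scaling. At 1.5-fold, 1 member was lower in sh#7 against control, 2 were higher in sh#2 against control, 1 was higher and 1 lower in sh#7 against sh#2, and list genes past the threshold numbered 14, 6 and 8 in these comparisons. Among values of single genes, 137 of 519 left their counting interval, and 0 that had passed 2-fold changed sign. The 99 values at the minimum mean of 5 FPKM and the 105 with no filter could not move. Those settings change which genes are kept, not a gene's value. With median-of-ratios scaling 74 left and 31 stayed, and with upper-quartile scaling 51 left and 54 stayed. With the pseudocount of 0.1, 12 left and 93 stayed. Of the members, SCD and DGAT1 in sh#7 against control changed sign under both scalings. Higher genes made up 48.6% of all genes past 2-fold in sh#7 against control, and 33.1% and 39.1% after these scalings; in sh#2 against control they made up 41.2%, and 30.1% and 32.9%. Among members listed above 0, ACACB had the fewest estimated fragments, 368 to 452 per library; LIPT1 had 114 to 164.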

Other observations

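Mitochondria make short fatty acids through a separate pathway, which feeds lipoic acid synthesis. All 10 genes of that list were compared and 0 passed 2-fold in either line. The median difference was 0.10 in sh#7 and 0.13 in sh#2, beside 0.16 and 0.10 over all compared genes. Of the 10, 2 lay above the median of all compared genes in sh#7 and 8 in sh#2. HSD17B8, a subunit of its ketoacyl reductase, was at 13.7 FPKM in control cells, 8.54 in sh#2 cells and 10.7 in sh#7 cells, and so was lowest in sh#2. MCAT, the malonyl transferase, was at 10.7, 13.7 and 14.3 FPKM. LIPT1, a lipoyl transferase, was at 2.10, 2.97 and 2.55 FPKM. The cytosolic enzymes ACACA and FASN, with differences of 1.02 and 0.70 in sh#7, lay above every gene of this mitochondrial list, whose highest value in sh#7 was 0.39. ACLY, at 0.31 in sh#7, lay below that value, as did ACACB at -0.07, which was under the minimum mean.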
